A study of Mus musculus with 6 samples.

Results

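Immune checkpoint genes were followed in liver tumors of mice across every annotated cell type. The set held 10 genes of the 34099 in the count tables, chosen by gene symbol: the receptors Pdcd1 (PD-1), Lag3 and Havcr2 (TIM-3), the transcription factor Tox, the ligands Cd274 (PD-L1), Pdcd1lg2 (PD-L2), Cd80, Cd86 and Lgals9 (galectin-9), and the ectoenzyme Entpd1 (CD39). All 10 were found, 1 row each, and their UMIs (unique molecular identifiers, each standing for 1 captured mRNA molecule) were summed per mouse over each cell type and each numbered cluster. The tumors were H22, a murine hepatocellular carcinoma line grown orthotopically in the liver of wild-type male C57BL/6J mice, 8 weeks old when obtained. The control group was 3 unstressed mice, and the stress group was 3 mice labelled chronic stress. The methods describe this as chronic unpredictable mild stress (CUMS) lasting 21 days. Per the paper, the H22 cells were implanted after the stress model had been evaluated. A transplanted single line is a model of tumor growth in a liver and not of a cancer arising there, and each mouse gave 1 single-cell library. A level is given as CPM, the UMIs of a gene per 1000000 UMIs of the same cells of the same mouse, and levels of different genes were not compared with each other.

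The libraries held 58794 annotated cells, with a median of 7166 to 20478 UMIs per cell, and 386 annotated barcodes occurred in more than 1 library. Control libraries were counted with Cell Ranger 9.0.0 and stress libraries with 7.1.0, so whatever the software version changes cannot be told apart from an effect of stress in what follows. The labels fitted their markers for NK/T cells (all 9 T cell and all 6 NK markers peaked there), B cells (5 of 5), endothelial cells (ECs, 7 of 7 endothelial markers), monocytes (5 of 7) and dendritic cells (DCs, all 5 migratory and 5 of 7 conventional DC markers). Of 5 tumor markers 3 peaked in tumor cells (Krt18, Afp and Cldn6), and of 5 neutrophil markers 3 in neutrophils. The cells labelled inflammatory myeloid carried the neutrophil markers at a summed 24785 CPM, with Csf3r and Cxcr2 at their highest there and monocyte and macrophage markers at 100.2 CPM, so the label is kept here only as a name. The cells labelled M-MDSC were 1 cluster in which 63.4% of cells were called doublets and the tumor markers summed to 679 CPM, against 789 CPM in tumor cells. One DC cluster, number 19, also had many cells called doublets (37.2%), with a median of 1567 UMIs per cell and tumor markers at 639.7 CPM.

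Checkpoint receptors are brakes on T cells. PD-1 appears on T cells after antigen stimulation and dampens signaling when it meets PD-L1 or PD-L2 on a neighboring cell, while TIM-3 and LAG-3 are further inhibitory receptors and TOX drives the transcriptional program of chronically stimulated, dysfunctional T cells. CD80 and CD86 on antigen-presenting cells bind both the costimulatory receptor CD28 and the inhibitory receptor CTLA-4, galectin-9 is a ligand of TIM-3, and CD39 breaks down extracellular ATP on the way to adenosine, which restrains T cells. In liver tumors the PD-1 axis is a target of therapy.

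In the GRCm38 annotation, Cd274 (chr19:29367455-29388095) and Pdcd1lg2 (chr19:29410919-29471161) lie on the plus strand of chromosome 19 with 22823 bases between them. Cd80 (chr16:38455561-38496335, plus) and Cd86 (chr16:36603869-36666081, minus) share chromosome 16, and Havcr2 (chr11:46454935-46481255, plus) and Lgals9 (chr11:78962974-78984946, minus) share chromosome 11. Entpd1 lies at chr19:40612366-40741602 (plus), Pdcd1 at chr1:94038305-94052553 (minus), Lag3 at chr6:124904361-124911705 (minus) and Tox at chr4:6686353-6991557 (minus). Entpd1 overlaps the annotated genes Gm16027, Gm8783 and AC166063.1 on its own strand, so reads of the shared stretch are uncertain, and Tox, Cd274 and Pdcd1lg2 overlap Gm11802, AC119228.1 and A930007I19Rik on the other strand.

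The 250 bases before the RefSeq start site (GRCm38.p6) were read for 7 members (all but Lag3, Tox and Cd86), 8 windows in all. They are shown for Cd274 (chr19:29367188-29367437), Pdcd1lg2 (chr19:29410669-29410918) and Cd80 (chr16:38458683-38458932), the ligands with the largest differences in DCs below, and for Lgals9 (chr11:78984925-78985174, minus strand), whose window held a motif match, printed in capitals. Each runs 5′ to 3′ on the gene's strand, plus for the other genes, and the RefSeq starts of Cd80 and Lgals9 lie inside the annotated genes.
Cd274: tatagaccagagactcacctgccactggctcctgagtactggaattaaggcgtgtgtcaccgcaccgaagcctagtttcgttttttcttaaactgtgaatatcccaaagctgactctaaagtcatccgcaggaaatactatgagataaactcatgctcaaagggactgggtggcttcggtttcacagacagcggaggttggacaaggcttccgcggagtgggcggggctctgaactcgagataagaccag
Pdcd1lg2: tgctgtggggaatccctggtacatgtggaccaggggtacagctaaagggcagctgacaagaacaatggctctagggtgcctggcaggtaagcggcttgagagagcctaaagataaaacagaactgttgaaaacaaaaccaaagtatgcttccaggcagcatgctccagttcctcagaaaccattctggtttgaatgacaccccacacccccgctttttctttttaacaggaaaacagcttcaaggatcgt
Cd80: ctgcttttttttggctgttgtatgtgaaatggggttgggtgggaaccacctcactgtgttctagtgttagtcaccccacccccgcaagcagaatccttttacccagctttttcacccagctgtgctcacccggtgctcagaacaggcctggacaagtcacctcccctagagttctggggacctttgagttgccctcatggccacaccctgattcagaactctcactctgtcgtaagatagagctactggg
Lgals9: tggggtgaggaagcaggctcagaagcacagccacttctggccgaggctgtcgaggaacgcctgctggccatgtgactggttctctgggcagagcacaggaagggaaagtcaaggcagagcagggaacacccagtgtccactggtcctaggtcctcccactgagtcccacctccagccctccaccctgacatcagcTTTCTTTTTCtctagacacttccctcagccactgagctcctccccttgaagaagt
Both strands were searched for 3 motifs of inflammatory transcription factors: GGG, any 2 bases, then TTTCC (an NF-κB-type site, in 1.41% of 32851 windows of this length), TTTC, any 2 bases, then TTTC (an interferon-stimulated response element, in 2.98%) and TTCNNNGAA (a STAT-type site, in 7.02%). The single match was TTTCTTTTTC in the Lgals9 window, 55 bases before the start site. The other windows held none of these letters, which says nothing about binding elsewhere.

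The members fell into a T cell group, a myeloid group and 1 gene highest in ECs. Pdcd1, Lag3 and Tox were NK/T cell genes. Pdcd1 averaged 256 ± 51.2 CPM in NK/T cells (SD over 6 mice, here and for the other levels) and at most 5.12 CPM in every other cell type except the 175 neutrophils (13.7 CPM), and 86.9% of its 4975 UMIs came from NK/T cells. Tox averaged 511 ± 164 CPM there, with 85.7% of its UMIs, and Lag3 63.6 ± 19.9 CPM. B cells came next for Lag3 at 10.7 CPM, and tumor cells held 19.8% of its UMIs at a level of 0.413 CPM.

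Havcr2, in contrast to the other receptors, was shared with myeloid cells. It averaged 113 ± 18.0 CPM in NK/T cells, 78.4 ± 23.9 CPM in monocytes and 62.4 ± 18.2 CPM in DCs, and monocytes held 47.3% of its UMIs pooled over mice. The PD-1 ligands were myeloid: Cd274 averaged 1279.6 ± 681 CPM in inflammatory myeloid cells, 445 ± 122 CPM in monocytes and 357 ± 107 CPM in DCs, and 5.43 ± 2.22 CPM in tumor cells. Pdcd1lg2 averaged 145 ± 58.4 CPM in inflammatory myeloid cells and 119 ± 61.4 CPM in DCs, followed by monocytes (64.7 CPM) and NK/T cells (61.5 CPM).

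The CD28 and CTLA-4 ligands split. Cd80 was highest in inflammatory myeloid cells (405 ± 236 CPM), then monocytes (189 CPM) and DCs (168 CPM), whereas Cd86 was low in inflammatory myeloid cells (27.0 CPM) and highest in DCs (311 ± 70.4 CPM) and monocytes (310.4 ± 125 CPM), with B cells next (173 CPM). Lgals9 was the 1 member led by ECs (127 ± 18.3 CPM), followed by monocytes (69.5 CPM) and inflammatory myeloid cells (68.8 CPM). Tumor cells, at 21.1 CPM, still held 54.9% of its UMIs, with 29638 cells. Entpd1 was highest in inflammatory myeloid cells (779 ± 561 CPM) and neutrophils (489 ± 244 CPM), then monocytes (212 CPM) and ECs (88.1 CPM).

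**Figure D1:**
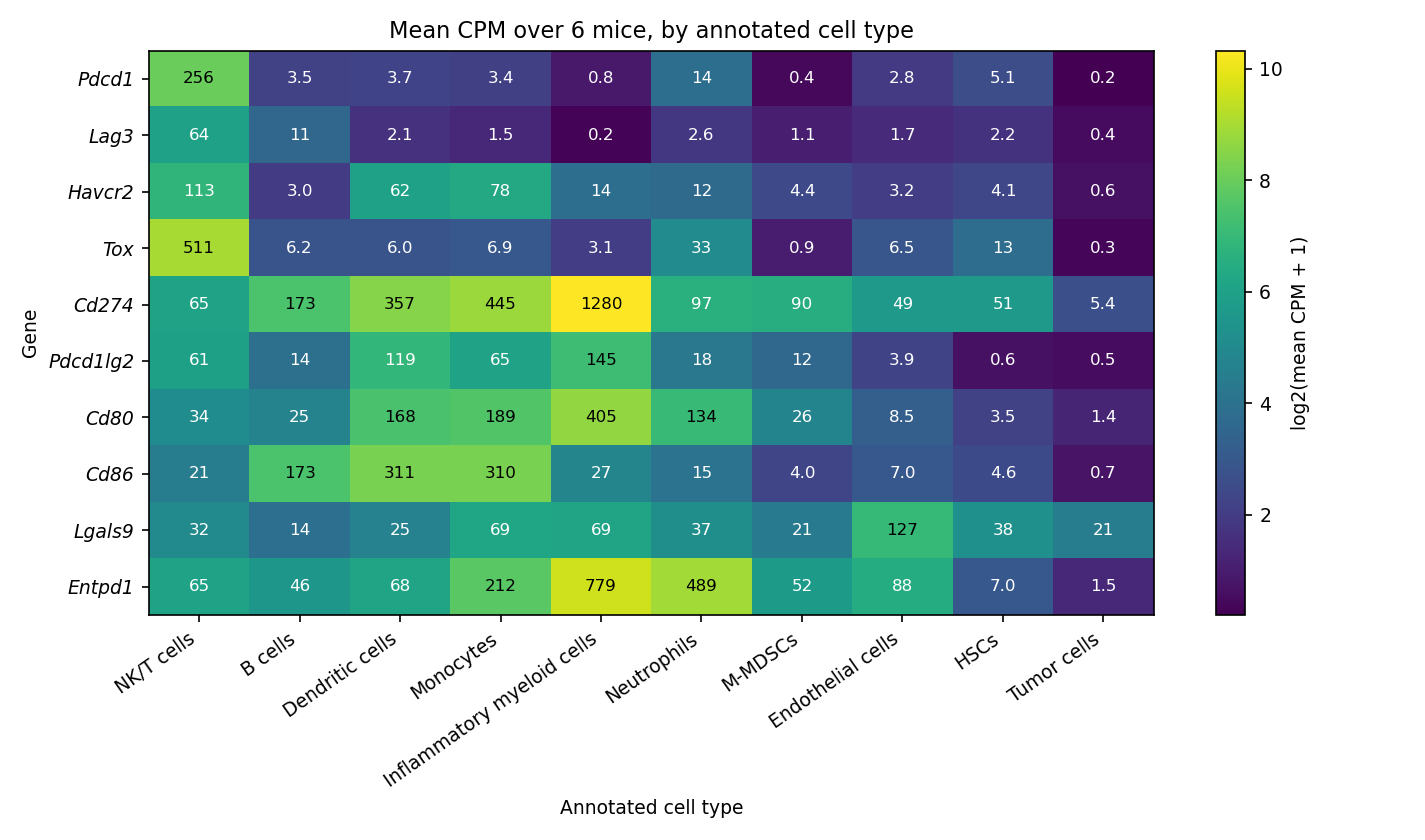
Mean CPM over the 6 mice for each gene (vertical axis) and annotated cell type (horizontal axis), with the color giving log2(mean CPM + 1) and each cell its mean. Colors are to be read along a gene, not between genes: Pdcd1, Lag3 and Tox peak in NK/T cells, the ligands in myeloid cells and Lgals9 in ECs.

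Over the 8 cell types with at least 10 cells in every mouse, the leading cell type exceeded the next in all 6 mice for 6 members: Pdcd1, Lag3, Tox, Cd274, Lgals9 and Entpd1. The gaps, as mean differences of log2(CPM + 1), were 5.95 ± 0.89 for Pdcd1, 6.22 ± 1.53 for Tox, 2.89 ± 1.91 for Lag3, 1.38 ± 0.46 for Cd274, 0.86 ± 0.35 for Lgals9 and 1.5 ± 0.90 for Entpd1 (SD, n = 6). Each had a two-sided exact sign-flip permutation p of 0.0313, the smallest that 6 mice can give, and the pair compared was picked on the same values, so this describes the order. The order of the top pair did not hold beyond the spread for Havcr2 (NK/T cells above monocytes in 5 of 6 mice, p = 0.125), Cd80 (5 of 6, p = 0.0625), Pdcd1lg2 (4 of 6, p = 0.344) and Cd86 (4 of 6, p = 0.781), by the same exact permutation test. With cells thinned to 1000 UMIs, Cd86 was higher in DCs than in monocytes in 6 of 6 mice (a gap of 0.79) and Cd80 in inflammatory myeloid cells in 6 of 6 (1.15), each at an exact permutation p of 0.0313. The cell types ranked 2 and 3 overlapped in their ranges over mice for 9 of 10 members, Entpd1 being the exception, though monocytes exceeded B cells for Cd86 in 6 of 6 mice.

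In NK/T cells the question was whether stress altered the receptors, and no member passed the test. By edgeR's quasi-likelihood test with Benjamini-Hochberg adjustment over 11196 genes, 0 of 10 members passed 0.05, against 0.857% of all genes; 0 members had an unadjusted p under 0.05, and DESeq2 called 0 (1.45% of all genes), with 1 under 0.05 unadjusted. Pdcd1 was 286, 204 and 317 CPM in control 1 to 3 and 229, 199 and 298 CPM in stress 1 to 3. The groups overlapped, with a log2 fold change (stress over control) of -0.06 (SE 0.21, adjusted p = 0.95). Lag3 was 91.9, 44.9 and 67.2 CPM in control 1 to 3 and 50.3, 45.8 and 81.6 CPM in stress 1 to 3, again overlapping, with a log2 fold change of -0.01 (SE 0.29, adjusted p = 0.999). Havcr2 stayed within 117 to 124 CPM in 5 mice and was 76.9 CPM in stress 2, giving -0.08 (SE 0.21, adjusted p = 0.933). Tox was 772, 371 and 629 CPM in control 1 to 3 and 526, 372 and 395 CPM in stress 1 to 3. Control 1 was the highest and control 2 the lowest of all mice, and the log2 fold change was -0.36 (SE 0.25, adjusted p = 0.595). Entpd1 ran from 42.9 CPM in control 1 to 93.8 CPM in control 3, with the stress mice between, and gave 0.06 (SE 0.25, adjusted p = 0.967). The median log2 fold change of the 10 members was 0.03, beside -0.0030 over all genes tested.

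**Figure D2:**
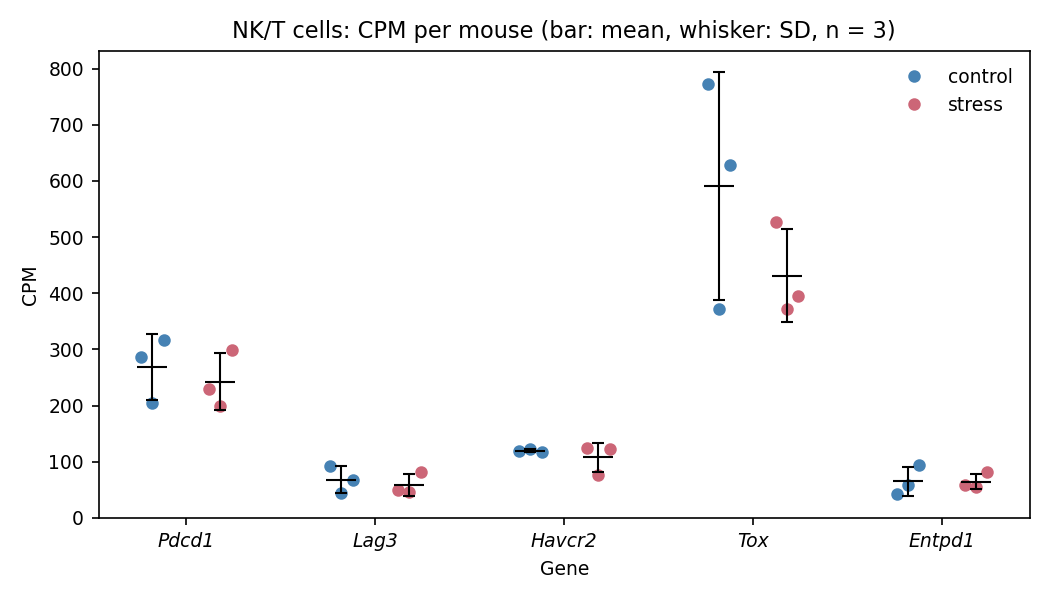
CPM in NK/T cells of each mouse (points) for the 4 receptors and factors and Entpd1, with the mean (bar) and SD (whisker) of the 3 control and 3 stress mice. The groups overlap for all 5 genes, and Tox ranges from 371 to 772 CPM among the control mice.

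The share of NK/T cells with a UMI depended on depth. Stress NK/T cells were deeper in every mouse, with median UMIs of 4477 to 5923 against 2958 to 4376.5 in control mice. Without thinning, a Pdcd1 UMI was found in 62.1 ± 8.52% of control and 66.5 ± 5.40% of stress NK/T cells (SD, n = 3; two-sided exact permutation p = 0.5). With every cell thinned to 1000 UMIs, which kept 2468 of 2490 NK/T cells, the shares were 29.1 ± 5.41% and 25.8 ± 1.94% (exact permutation p = 0.4), the other way round. No direction can be read from either, and this exact test on 3 against 3 mice cannot go below p = 0.10. The mean thinned shares in control and stress mice were also lower in stress for Lag3 (9.36 and 6.82%), Havcr2 (12.8 and 11.1%) and Tox (48.5 and 37.8%), and overlapped between the groups in each. Pooled over mice at this depth, Pdcd1 was detected in 25.5% of 2468 NK/T cells (95% interval 23.8 to 27.3%) and in 0.0307% of 29314 tumor cells (95% interval 0.0140 to 0.0583%), a cell type that should lack it. The intervals cover counting error only. Tumor cells had a Havcr2 UMI in 0.0512% and NK/T cells in 12.3%, Lag3 in 0.0546% and 7.13%, and Tox in 0.0409% and 37.8%, where the median depths before thinning were 27716 UMIs in tumor cells and 4403 in NK/T cells. Among the 10 members, only Cd274 separated in NK/T cells unthinned and at 1000 UMIs. Its share was higher in every stress mouse (25.5 and 7.2% of all genes). At 2000 UMIs Cd274 overlapped, and Lgals9 had a lower share in every stress mouse (10.4%).

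NK/T cells were a single cluster, so they were split by the UMIs they held. Among the 2339 cells with a Cd3d, Cd3e or Cd3g UMI, 1532 had Cd8a or Cd8b1 and no Cd4, and 349 had Cd4 without Cd8a, Cd8b1 or Foxp3. A Foxp3 UMI, the mark of regulatory T cells, was in 80 NK/T cells, and 83 had Ncr1 or Klrb1c, NK cell receptors, without Cd3. Pdcd1 averaged 284 ± 57.0 CPM in the CD8 cells, 223 ± 45.3 CPM in the CD4 cells, 94.5 ± 63.9 CPM in the Foxp3 cells and 5.03 ± 10.1 CPM in the Ncr1 or Klrb1c cells. Lag3 averaged 69.4 ± 21.5 CPM in the CD8, 70.2 ± 24.2 CPM in the CD4, 21.2 ± 19.8 CPM in the Foxp3 and 15.7 ± 21.6 CPM in the Ncr1 or Klrb1c cells. The last pair of classes is uncertain per mouse, since control 1 had 4 Foxp3 cells and 1 Ncr1 or Klrb1c cell, and control 3 had 1 and 4. Tox was higher in CD4 cells (819 ± 160.2 CPM) than in CD8 cells (456 ± 169.9 CPM), and this held in all 6 mice. The CD4 class had only 15 cells in control 1 and 13 in control 3, so its values there are uncertain. Havcr2 averaged 119 ± 26.3 CPM in CD8 and 144 ± 82.4 CPM in CD4 cells, with overlapping mice. In the CD8 cells the groups overlapped for Pdcd1 (means of 294 CPM in control and 274 CPM in stress mice) and Lag3 (73.9 and 65.0 CPM). For Tox in CD8 cells the means were 559 and 354 CPM, and control 2, at 340.3 CPM, lay within the stress range of 319.7 to 412 CPM.

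**Figure D3:**
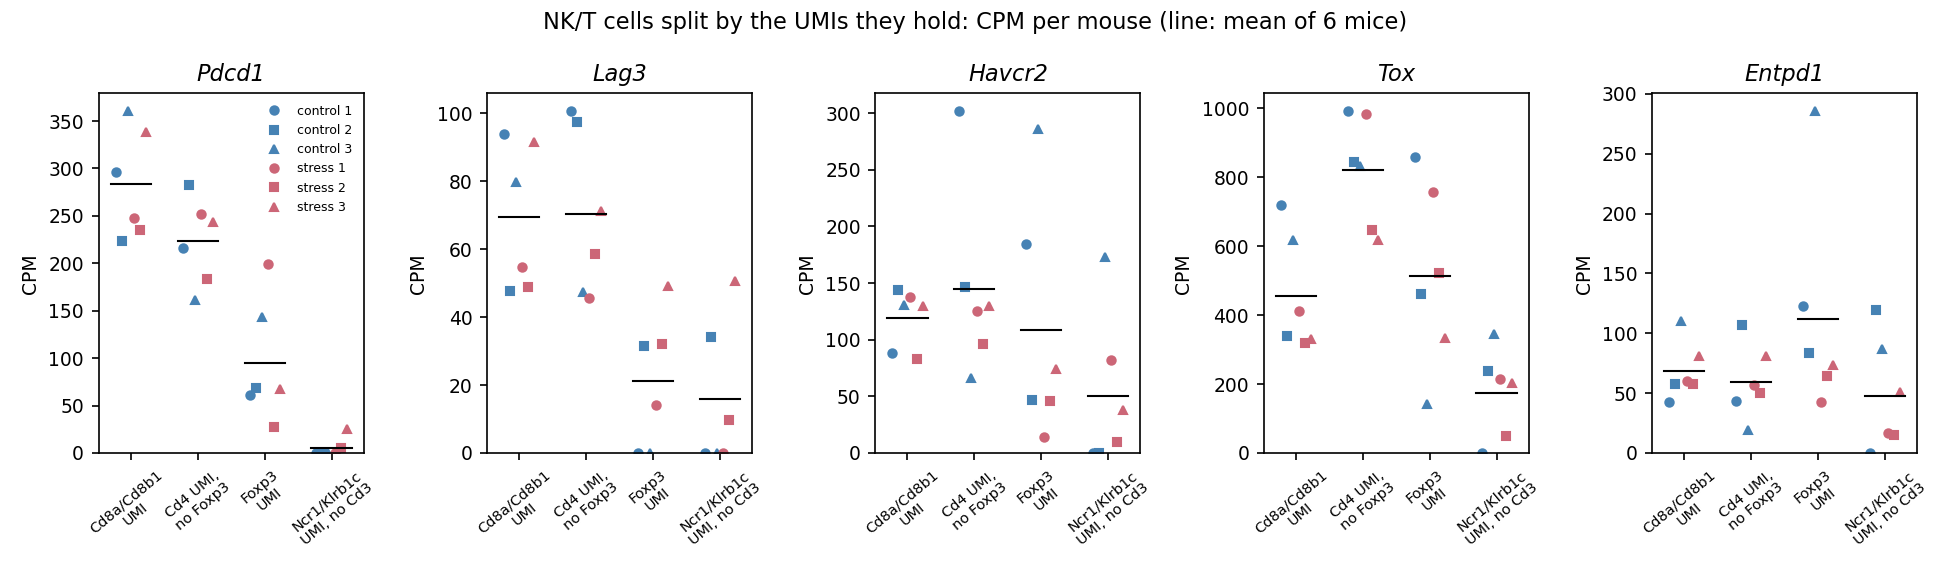
CPM per mouse (points; shape for the replicate number, color for the group) in 4 classes of NK/T cells defined by the UMIs they hold, with the mean of 6 mice (line); each panel has its own axis. Pdcd1 is near 0 in cells with an Ncr1 or Klrb1c UMI and no Cd3 UMI (5.03 CPM on average), and the Foxp3 and Ncr1 or Klrb1c classes rest on 80 and 83 cells.

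Receptor UMIs occurred together in single Cd3-positive cells. Of 657 cells with a Lag3 UMI, 56.5% had a Havcr2 UMI, against 34.7% of the 1682 without, and the Havcr2 level was higher in the cells with Lag3 in all 6 mice (139 and 102 CPM). Of 1551 cells with a Pdcd1 UMI, 47.5% had Havcr2 and 33.5% had Lag3, against 27.7% and 17.4% of the 788 without. Cells with a UMI were also deeper, with median UMIs of 5516.5 against 3997.5 for Lag3 and 4757 against 3646 for Pdcd1, and detection of any gene rises with depth, so levels are given too. By CPM, Havcr2 was higher in cells with Pdcd1 in 5 of 6 mice (123 and 95.2 CPM) and Lag3 also in 5 of 6 (70.2 and 48.5 CPM). Tox and Havcr2 had no single direction. The Tox level was lower in cells with a Havcr2 UMI in all 6 mice (459 against 584 CPM), while the Havcr2 level was higher in cells with a Tox UMI in 5 of 6 mice (118 against 103 CPM), and 78.2% of Havcr2-positive cells had a Tox UMI, against 70.1% of the others. These are descriptions of cells within libraries, with no test.

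In DCs, 4 members had higher levels in all 3 stress mice than in any control mouse: Cd274, Pdcd1lg2, Cd80 and Havcr2. Cd274 was 181, 288 and 349 CPM in control 1 to 3 and 442, 437 and 442 CPM in stress 1 to 3. The stress mice were nearly equal and the control mice spread below them. Pdcd1lg2 was 26.5, 116 and 74.0 CPM in control 1 to 3 and 130.2, 181 and 184 CPM in stress 1 to 3, with the lowest stress mouse just above the highest control mouse. Cd80 was 72.6, 154 and 142 CPM in control 1 to 3 and 166, 229.7 and 245 CPM in stress 1 to 3, and Havcr2 was 54.9, 42.7 and 47.9 CPM in control 1 to 3 and 91.6, 74.3 and 63.0 CPM in stress 1 to 3. These 4 of the 8 members tested compare with 8.28% of all genes that were higher in stress without overlap.

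None of the 4 passed the adjusted threshold over 10533 genes, though each came close to it. The log2 fold changes by edgeR were 0.79 (SE 0.20, adjusted p = 0.0554) for Cd274, 1.20 (SE 0.31, adjusted p = 0.0617) for Pdcd1lg2, 0.87 (SE 0.23, adjusted p = 0.0635) for Cd80 and 0.79 (SE 0.20, adjusted p = 0.0575) for Havcr2. The count of members called was thus 0 of 8, against 2.64% of all genes, with 4 at an unadjusted p under 0.05. Cd86 (0.30, adjusted p = 0.519), Lgals9 (0.20, 0.734) and Entpd1 (0.02, 0.990) did not pass and overlapped between the groups. The median over the 8 members was 0.79, beside -0.02 over all genes. DESeq2 called Cd274, Cd80 and Havcr2 (3.43% of all genes), and edgeR without the filter on low counts called all 4 (3.79%). Without control 2, Cd80 and Pdcd1lg2 passed (3.66%), and without control 3, Cd274 passed (1.21%).

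The composition of the DCs also differed between the groups. DCs formed 2 clusters, and cluster 20, with all 5 migratory DC markers at a summed 1496 CPM against 90.6 CPM in cluster 19, was 25.3, 40.5 and 25.9% of the DCs of control 1 to 3 and 50.4, 63.3 and 52.2% of those of stress 1 to 3 (two-sided exact permutation p = 0.10, the smallest possible). Cluster 20 held 777 cells, while only 600 of all DCs had a UMI of Ccr7 or Fscn1. It is therefore not read as migratory DCs alone. Its levels of the members were higher than those of cluster 19: 783 CPM against 145 CPM for Cd274, 304 CPM against 21 CPM for Pdcd1lg2, 382 CPM against 60.8 CPM for Cd80, 790.0 CPM against 85.1 CPM for Cd86, and 153 CPM against 16.8 CPM for Havcr2. Within cluster 20 the control and stress mice overlapped for all 5. Cd274 there was 298, 777 and 1102 CPM in control 1 to 3 and 708, 966 and 846 CPM in stress 1 to 3, with control 3 the highest and control 1 the lowest mouse. The log2 fold changes in cluster 20 were 0.29 for Cd274 (adjusted p = 0.787), 0.61 for Pdcd1lg2 (0.528), 0.33 for Cd80 (0.725), 0.06 for Havcr2 (0.953) and -0.31 for Cd86 (0.685), against 0.313% of genes called there. In cluster 19 they were 0.30, 0.52, 0.55, 0.82 and -0.30 in the same order, with 0 of 7 members called against 0.425% of genes. Havcr2 in cluster 19 was higher in every stress mouse (5.96% of genes), at levels of 0 to 23.7 CPM over the 6 mice. In both clusters edgeR called 0 of 7 members, with 1 (Entpd1 in cluster 20) and 0 at an unadjusted p under 0.05. The part of the cluster shares in the member differences over all DCs was not tested.

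Over all DCs, the migratory DC markers summed to 136 to 366 CPM in control mice and 757 to 1142 CPM in stress mice, and the 7 conventional DC markers to 1842 to 2354 CPM in control mice and 3035 to 3449 CPM in stress mice. The conventional DC sum was mostly H2-Aa, which alone averaged 2498 CPM in DCs over the mice. Flt3 averaged 37.0, Cd209a 27.5, Batf3 26.5 and Xcr1 8.66 CPM, so this sum says little about them. The T cell markers summed to 3.54 to 35.2 CPM in control mice and 57.0 to 145 CPM in stress mice. They include Cd4 and Cd8a, and 1 (Foxp3) of the 9 was at 0 in all mice. Tumor markers summed to 444 to 542 CPM in control mice and 319 to 459 CPM in stress mice. The part of these sums in the differences was not tested. Without cells called doublets, the log2 fold changes in DCs were 0.53 for Cd274, 0.93 for Pdcd1lg2, 0.62 for Cd80 and 0.51 for Havcr2, and edgeR called 0 of 8 members in a fit that called 0.0811% of 7399 genes, with 1 at an unadjusted p under 0.05. With cells thinned to 1000 UMIs before summing and shallower cells left out, they were 0.37, 0.41, 0.56 and 0.98. EdgeR then called 0 of 6 members in a fit that called 0.713% of 3087 genes, with 1 at an unadjusted p under 0.05. Cells under 1000 UMIs numbered 32 of 79, 61 of 269 and 47 of 158 DCs in control 1 to 3. In stress 1 to 3 they numbered 21 of 141, 41 of 553 and 69 of 356. The share of DCs with a Cd86 UMI at that depth was 27.7, 33.7 and 31.5% in control 1 to 3 and 35.8, 36.5 and 35.5% in stress 1 to 3, without overlap (two-sided exact permutation p = 0.10, the smallest possible), where its level overlapped. The separation was seen at this depth alone: at 2000 UMIs control 3 lay above stress 3 (45.8%), and unthinned the shares were 41.8 to 64.3% in control and 62.4 to 74.5% in stress mice, so that both overlapped (exact permutation p = 0.2 each). Members with a higher share in every stress mouse were Cd86, Cd274, Pdcd1lg2 and Havcr2 at 1000 UMIs (4 of 8, against 5.55% of all genes), Cd274, Cd80 and Havcr2 at 2000 UMIs (5.3%), and Pdcd1lg2 and Havcr2 unthinned (9.62%). Each percentage is over the 10533 genes tested unthinned, while 3087 genes passed the filter on low counts at 1000 UMIs.

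**Figure D4:**
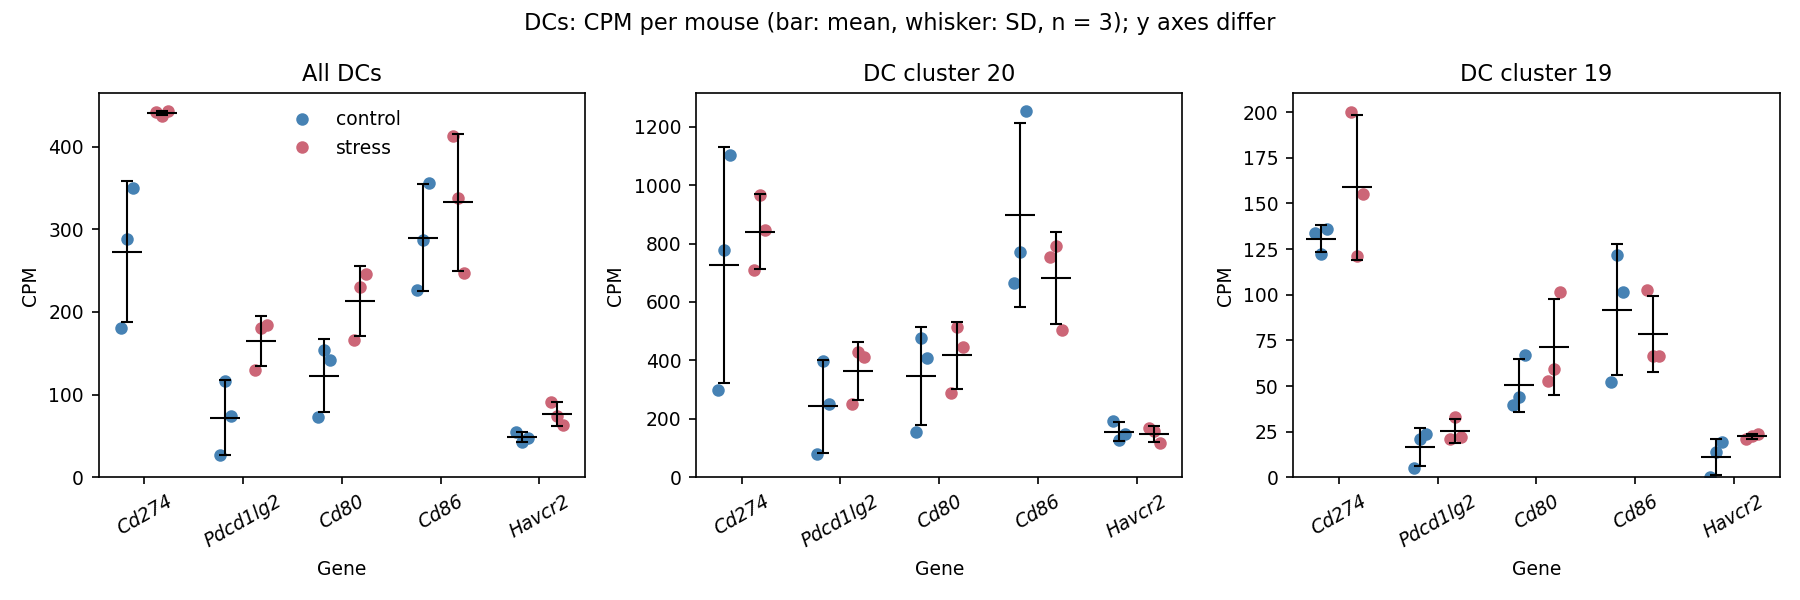
CPM per mouse (points) of 4 ligands and Havcr2 in all DCs, in cluster 20 and in cluster 19, with the mean (bar) and SD (whisker) of 3 mice; the axes differ between panels. Over all DCs the stress mice lie above the control mice for Cd274, Pdcd1lg2, Cd80 and Havcr2, and within cluster 20 the groups overlap for all 5 genes.

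Split by single cells, the 600 DCs with a UMI of Ccr7 or Fscn1, which mark migratory DCs, averaged 584 ± 182 CPM of Cd274, and the 956 others 229 ± 54.1 CPM. For Pdcd1lg2 the levels were 211 ± 93.7 CPM and 59.6 ± 24.3 CPM, and for Cd80 246 ± 116 CPM and 115 ± 29.4 CPM. Havcr2 had no single direction, at 47.2 ± 36.9 CPM in the Ccr7 or Fscn1 class and 66.4 ± 13.2 CPM in the others over the 6 mice. It was lower in the class than in the others in all 3 control mice (means of 15.5 and 58.6 CPM) and higher in stress 1 and stress 3 (means of 78.9 and 74.2 CPM over the stress mice). Within the Ccr7 or Fscn1 class Havcr2 was 7.46, 18.8 and 20.1 CPM in control 1 to 3 and 99.5, 71.8 and 65.5 CPM in stress 1 to 3, without overlap, as were 6.92% of all genes in that direction, while within cluster 20 it overlapped. In the others it was 69.6, 50.3 and 55.8 CPM in control 1 to 3 and 85.2, 76.7 and 60.8 CPM in stress 1 to 3, overlapping. For the other 7 members tested in DCs the groups overlapped in that class. The 236 DCs with Xcr1 or Clec9a, markers of cross-presenting conventional DCs, carried Havcr2 at 120.4 ± 33.8 CPM. Over the annotated cell types Clec9a was highest in ECs (74.3 CPM), and Xcr1 averaged 8.66 CPM in DCs. This class is therefore named only by the UMIs it holds. Control mice had only 9, 54 and 27 cells of the Ccr7 or Fscn1 class, so per-mouse values there are uncertain. The ligands occurred in the same DCs: 53.6% of the 1150 DCs with a Cd274 UMI had Pdcd1lg2, against 13.3% of the rest, and 69.9% had Cd80, against 32.3%. Depth differs between such cells, and no test was made.

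Pooled over mice, monocytes held 35.7% of the UMIs of Cd274, 33.9% of Pdcd1lg2, 43.7% of Cd80 and 62.6% of Cd86. Within mice this rank held in all 6 for Cd86 alone: inflammatory myeloid cells held more Cd274 UMIs than monocytes in 4 of 6 mice, and their mean share of Pdcd1lg2 over mice was 29.5%, beside 26.6% for monocytes. The monocyte levels overlapped between the groups for these 4 genes. Cd274 was 235, 549.9 and 424 CPM in control 1 to 3 and 394, 548 and 517 CPM in stress 1 to 3, with control 1 alone low and a log2 fold change of 0.32 (SE 0.30, adjusted p = 0.683). Pdcd1lg2 ran from 10.8 CPM in control 1 to 135 CPM in control 2 (0.47, SE 0.78), and Cd80 from 105 to 275 CPM (0.40, SE 0.37, adjusted p = 0.679). Cd86 was 278, 555 and 288 CPM in control 1 to 3 and 229, 302 and 209 CPM in stress 1 to 3, with control 2 high, and its log2 fold change was -0.55 (SE 0.28, adjusted p = 0.469). Havcr2 gave 0.50 (SE 0.30, adjusted p = 0.538), Entpd1 0.33 (SE 0.29, adjusted p = 0.668) and Lgals9 -0.07 (SE 0.20, adjusted p = 0.909). In all, 0 of 10 members were called by edgeR, against 0.122% of genes, with 1 at an unadjusted p under 0.05, and 0 by DESeq2, against 1.47% of genes.

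The 3 monocyte clusters differed among themselves in the members. Cluster 11 led in Cd86 (451 ± 163 CPM) and Pdcd1lg2 (116 ± 72.5 CPM), and cluster 12 in Havcr2 (129.6 ± 32.3 CPM) and Cd80 (246 ± 54.4 CPM), while cluster 13 had less Cd86 (164 ± 49.1 CPM). Cd86 gave the same sign in all 3: -0.72 (SE 0.22, adjusted p = 0.271) in cluster 11, -0.80 (SE 0.17, adjusted p = 0.114) in cluster 12 and -0.27 (SE 0.25, adjusted p = 0.811) in cluster 13. None of the 10, 7 and 7 members tested there was called by edgeR, against 0.102, 0.218 and 0.0984% of genes, and Cd86 in clusters 11 and 12 was the only member at an unadjusted p under 0.05. With the replicate number as a block, Cd86 in cluster 12 passed, in a fit that called 2.27% of genes.

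The T cell genes Pdcd1 and Lag3 were also higher in monocytes of all 3 stress mice than of any control mouse, 2 of 10 members against 6.82% of all genes, and are named because of it. Pdcd1 there was 0, 3.20 and 1.24 CPM in control 1 to 3 and 4.40, 4.83 and 6.54 CPM in stress 1 to 3 and Lag3 0, 1.72 and 0.742 CPM in control 1 to 3 and 2.20, 2.10 and 2.28 CPM in stress 1 to 3, on 179 and 75 UMIs in all. The 9 T cell markers in the same monocytes summed to 3.20 to 40.7 CPM in control mice and 69.3 to 85.9 CPM in stress mice, without overlap and with none of the 9 at 0 in all mice, and the 6 NK markers to 0.799 to 19.2 CPM in control mice and 27.5 to 46.7 CPM in stress mice. Their part in the Pdcd1 and Lag3 values was not tested, and neither gene passed the adjusted test (1.61, adjusted p = 0.370, and 1.12, adjusted p = 0.498).

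In inflammatory myeloid cells, where Cd274, Cd80 and Entpd1 were highest, levels varied widely between the mice of a group. Cd274 was 419, 2291 and 1026 CPM in control 1 to 3 and 789, 1381 and 1772 CPM in stress 1 to 3, so that control mice held both the lowest and the highest value. Entpd1 was 161, 931 and 263 CPM in control 1 to 3 and 488, 1359 and 1474 CPM in stress 1 to 3, with control 1, control 3 and stress 1 low. The log2 fold changes were 0.23 (SE 0.72) for Cd274, 1.45 (0.78) for Entpd1, 1.0 (0.67) for Cd80, 0.83 (0.46) for Cd86, 0.75 (0.55) for Havcr2 and 0.52 (0.57) for Lgals9, and Pdcd1lg2, outside the pairs fixed for fold changes, had the opposite sign at -0.16 (0.57), all at an adjusted p of 0.994. By edgeR 0 of 9219 genes were called (0%), with 365 at an unadjusted p under 0.05 and 6 called by DESeq2 (0.0651%), so that 0 of 7 members says little. At 1000 UMIs per cell, 59.6% of 5323 inflammatory myeloid cells (95% interval 58.3 to 60.9%) had a Cd274 UMI, against 0.505% of tumor cells, and 43.7% had an Entpd1 UMI. These cells were shallow, with a median of 1547 UMIs, and 5323 of 6307 reached 1000 UMIs.

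In ECs, Lgals9 was 111, 103 and 123 CPM in control 1 to 3 and 145, 132 and 149 CPM in stress 1 to 3. The lowest stress mouse lay above the highest control mouse, 1 of 10 members against 12.5% of all genes. The log2 fold change was 0.31 (SE 0.11, adjusted p = 0.272), and 0 of 10 members were called by edgeR against 0.213% of genes, with 1 at an unadjusted p under 0.05, and 0 by DESeq2, against 3.02% of genes. The share of ECs with a Lgals9 UMI at 1000 UMIs per cell was 11.8 to 13.3% in control and 13.6 to 15.9% in stress mice (two-sided exact permutation p = 0.10), and 7.93% of all genes had higher shares in stress without overlap. At 2000 UMIs the Lgals9 shares were 23.5 to 24.7% in control and 24.6 to 31.1% in stress mice, and unthinned 40.8 to 51.1% and 45.5 to 55.6%, both overlapping (exact permutation p = 0.2 each). Cd274 (-0.43, SE 0.39, adjusted p = 0.626) and Entpd1 (-0.15, SE 0.41, adjusted p = 0.884) overlapped between the groups. The members were unevenly spread over the EC clusters. Lgals9 was highest in cluster 2 (174 ± 12.8 CPM) and cluster 8 (162 ± 29.8 CPM) and Entpd1 in cluster 18 (336 ± 51.3 CPM). The composition of the ECs differed between the groups: cluster 15 was 1.73, 4.94 and 5.35% of the ECs of control 1 to 3 and 11.3, 23.1 and 17.7% of those of stress 1 to 3, and cluster 8 was 28.4 to 30.2% in control and 18.0 to 25.3% in stress mice. Within cluster 2, Lgals9 was 166, 160 and 162 CPM in control 1 to 3 and 187, 178 and 189 CPM in stress 1 to 3, without overlap (10.7% of genes). It was also higher in every stress mouse within cluster 15 (7.36%) and cluster 18 (9.24%), and it overlapped within clusters 8, 16, 24 and 27. In cluster 15, with 34 cells in control 1, it was 37.1 to 95.4 CPM in control and 131 to 156 CPM in stress mice. The part of the cluster shares in the Lgals9 difference over all ECs was not tested. In cluster 24, where 92.1% of cells were called doublets, Cd274 reached 430.1 CPM, Cd80 187 CPM and Cd86 178 CPM. In cluster 27, 73 cells of which 57.5% were called doublets, Pdcd1 reached 251 CPM, Tox 452 CPM and Lag3 121 CPM, beside 256 CPM, 511 CPM and 63.6 CPM in NK/T cells. Cluster 27 held 1 cell in control 1 and 6 each in control 3 and stress 1, so these levels are uncertain.

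Tumor cells carried little of the PD-1 ligands. Cd274 was 2.58, 7.14 and 3.63 CPM in control 1 to 3 and 4.32, 6.77 and 8.16 CPM in stress 1 to 3, overlapping, with a log2 fold change of 0.38 (SE 0.36, adjusted p = 0.476), and Pdcd1lg2 averaged 0.460 ± 0.359 CPM. Lgals9 ran from 14.1 CPM in control 2 to 23.6 CPM in stress 3, with control 2 alone low (0.03, SE 0.21, adjusted p = 0.934). At 1000 UMIs per cell 0.505% of tumor cells had a Cd274 UMI. By edgeR 0 of 10 members were called in tumor cells, where 21.4% of all genes were, with 1 at an unadjusted p under 0.05, and DESeq2 called 0 members and 26.5% of genes. That member, Lag3, named for this and for its groups that did not overlap (28.2% of genes), was 0.223, 0.422 and 0.252 CPM in control 1 to 3 and 0.528, 0.475 and 0.579 CPM in stress 1 to 3, and leaving out control 2 brought it and Cd274 past the threshold (29.9% of genes).

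In B cells, Cd86 was 61.7, 459.8 and 187 CPM in control 1 to 3 and 119.6, 122 and 88.4 CPM in stress 1 to 3, with 1 control mouse far above the others and a log2 fold change of -1.02 (SE 0.43, adjusted p = 0.417). Cd274 (0.19), Cd80 (-0.04) and Entpd1 (0.51) were the other members tested, and edgeR called 0 of 4, against 0.483% of genes, with 1 at an unadjusted p under 0.05, and 0 by DESeq2, against 0.794%. Without the filter on low counts Cd86 passed (1.73% of genes). In the 350 cells labelled M-MDSC, Entpd1 was 2.58, 38.3 and 23.1 CPM in control 1 to 3 and 51.6, 71.2 and 125 CPM in stress 1 to 3, without overlap, as were 7.64% of all genes in that direction, and its log2 fold change was 1.71 (SE 0.42, adjusted p = 0.129). Cd274 there gave 0.86 (SE 0.45, adjusted p = 0.588) and Lgals9 -0.53 (SE 0.29, adjusted p = 0.598), and 0 of 5 members were called by edgeR (0.561% of genes), with 2 (Entpd1 and Cd80) at an unadjusted p under 0.05, and 0 by DESeq2 (0.826%). Entpd1 passed without control 2 (0.926%), and Entpd1, Cd274 and Cd80 passed without the filter on low counts (1.65%). Control 1 had 15 of these cells.

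Summed over all annotated cells of a mouse, as a bulk sample of these cells would be, all 10 members had a positive log2 fold change, with a median of 1.11 beside 0.04 over all genes. Pdcd1 was 0.826, 5.23 and 1.65 CPM in control 1 to 3 and 3.18, 10.2 and 9.51 CPM in stress 1 to 3, with a log2 fold change of 1.43 (SE 0.70, adjusted p = 0.209), and Havcr2 gave 1.28 (SE 0.66, adjusted p = 0.231), Lag3 1.26 (SE 0.49, adjusted p = 0.133) and Tox 1.18 (SE 0.56, adjusted p = 0.199). By edgeR 0 of 10 were called, against 10.1% of all genes, with 1 at an unadjusted p under 0.05, and Lag3 and Tox were called without control 2 (11.8%). In such sums a change in the number of cells of a type and one in RNA per cell cannot be told apart. NK/T cells numbered 93, 674 and 126 in control 1 to 3 and 269, 814 and 514 in stress 1 to 3. Within NK/T cells the log2 fold change of Pdcd1 was -0.06. Summed over all cells but tumor cells, the median over the members was 0.59, with 0 members called in a fit that called 0.0473% of genes.

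**Figure D5:**
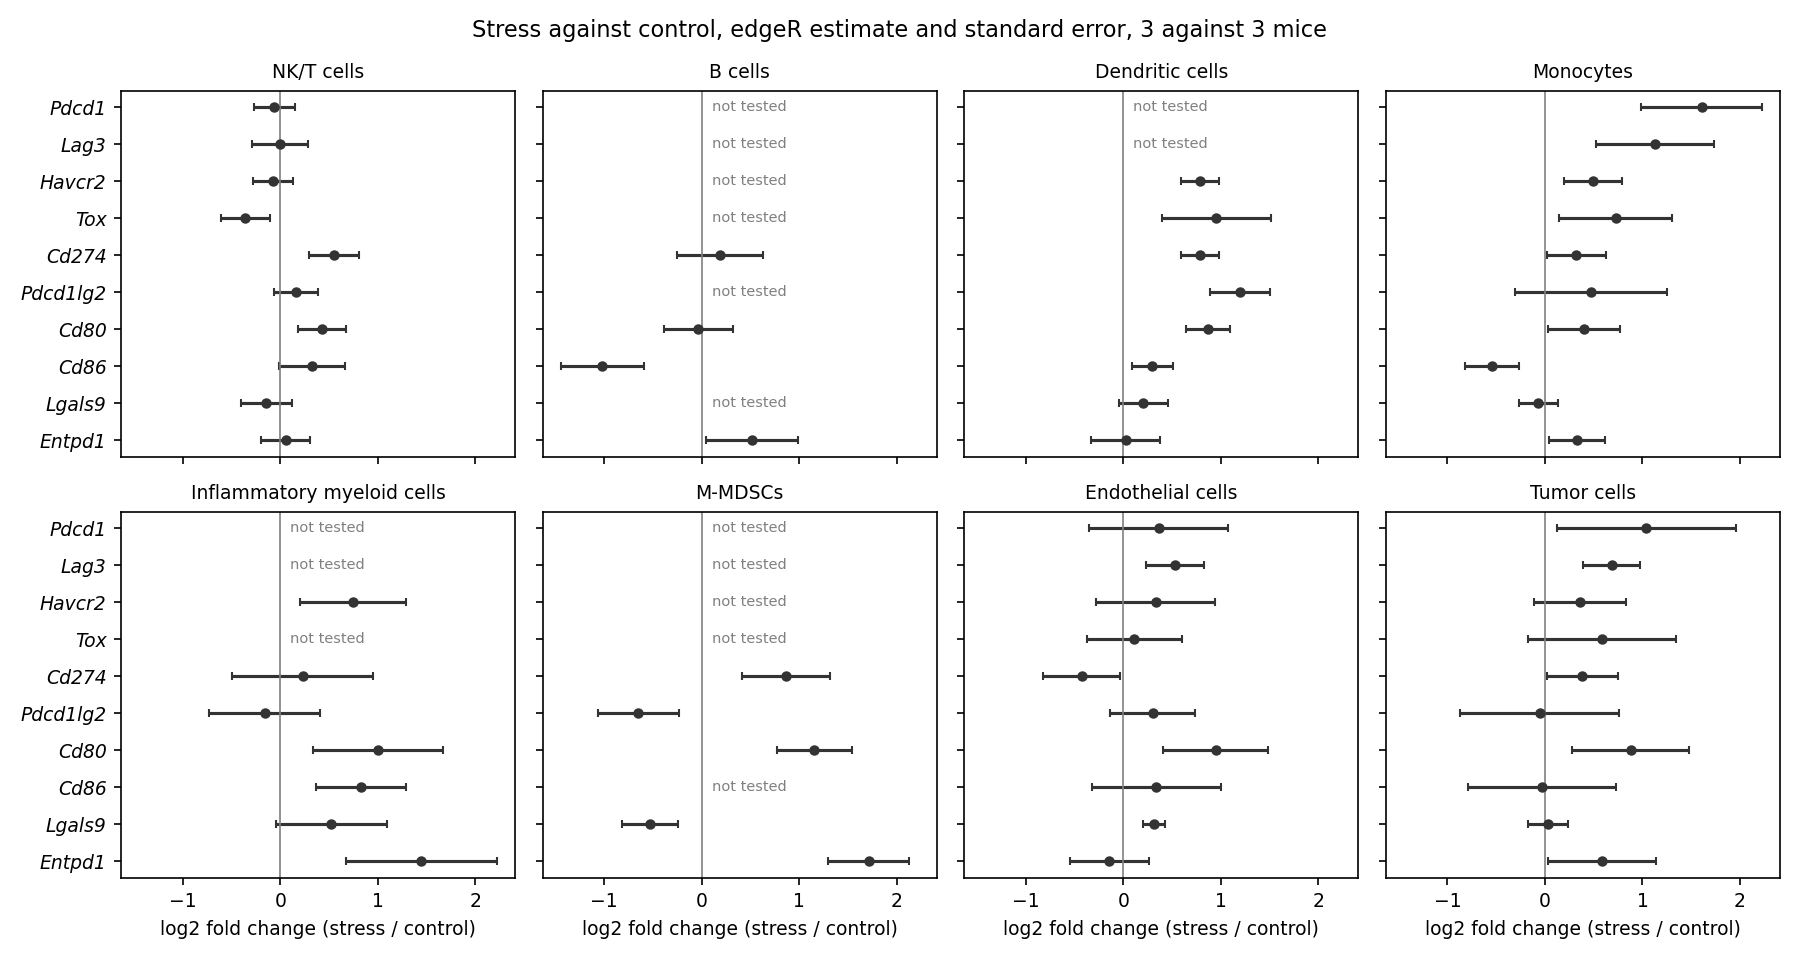
Log2 fold change of stress over control (horizontal axis) with its standard error (bar) for each member in each cell type, from edgeR on UMI sums of 3 control and 3 stress mice; genes that did not pass the filter on low counts are marked as not tested. In NK/T cells the 3 receptors lie at 0 within their error and the transcription factor Tox lies at -0.36. In DCs Cd274, Pdcd1lg2, Cd80 and Havcr2 lie between 0.79 and 1.20.

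Other genes of the same pathways were taken from 6 lists with 73 genes in all. In NK/T cells 53 were tested and 2 rose, beside 0.857% of all genes called, both of the interferon-gamma response list (9 tested). They were Cxcl10, a chemokine that attracts T cells (1.83, SE 0.34, adjusted p = 0.0254), and Jak2, a kinase of the interferon-gamma receptor (0.79, SE 0.17, adjusted p = 0.0481). Cxcl10 was 16.3, 49.1 and 10.4 CPM in control 1 to 3 and 116, 116 and 87.9 CPM in stress 1 to 3. In NK/T cells Cxcl10 passed in 11 of 14 alternatives, not without control 1, control 3 or stress 1 (adjusted p = 0.118, 0.0743 and 0.0881 by edgeR). Jak2 passed in 8 of 14, not with RLE size factors (adjusted p = 0.0504) or without any 1 mouse other than stress 2 (0.110 to 0.174). None of the 11 other inhibitory receptors tested, Ctla4 and Tigit among them, and none of the 12 transcription factors of T cell dysfunction passed. In DCs 49 were tested, 7 rose and 0 fell, beside 2.64% of all genes called. The risers were the costimulatory receptor Cd40 (1.40, SE 0.25, adjusted p = 0.0126) and the TNF receptor family member Tnfrsf4 (2.36, SE 0.39, adjusted p = 0.00947), 2 of 9, the inhibitory ligands Cd200 (1.92, SE 0.31, adjusted p = 0.00933) and H2-T23 (1.14, SE 0.24, adjusted p = 0.0261), 2 of 6, the orphan nuclear receptor Nr4a3 (1.05, SE 0.14, adjusted p = 0.00401), 1 of 11, and Cxcl10 (1.76, SE 0.41, adjusted p = 0.0409) and Jak2 (0.94, SE 0.20, adjusted p = 0.0309), 2 of 11. Over the alternatives that gave a value, Tnfrsf4 passed in 12 of 13 and Cxcl10 in DCs in 5 of 14, with the others between. The share of cluster 20 moved with stress as given above, and its part in these 7 was not tested. In monocytes edgeR called 0 of the 55 tested (0.122% of all genes), and in ECs 1 of 54 (0.213%), Ctla4, which fell (-1.46, SE 0.17, adjusted p = 0.0298). This call held in 8 of 14 alternatives, and it was lost without any 1 mouse other than control 2 (adjusted p = 0.0790 to 0.138 by edgeR) and with cells thinned to 1000 UMIs (0.0510), with a negative value in each. In tumor cells, where 21.4% of all genes were called, 6 of 60 rose and 3 fell, which lie outside the cell types chosen for naming and are named after their values were seen. Ctla4 (-1.81), Slc29a1 (-0.82), a nucleoside transporter, and Nectin2 (-0.44), a ligand of TIGIT, fell. Tbx21 (2.47), Batf (1.65), Tnfsf4 (1.58), Cd200r1 (1.34) and Nt5e (1.14) rose, none of them above 1.33 CPM in any mouse, and Ifngr2 (0.46), a chain of the interferon-gamma receptor, rose at levels of 24.1 to 46.0 CPM. Over the alternatives, Ctla4 and Slc29a1 passed in 13 of 13, Tnfsf4 in 11 of 12, and Tbx21 and Nt5e in 10 of 12. Nectin2 passed in 8 of 13, Ifngr2 in 7 of 13, and Batf and Cd200r1 in 7 of 12.

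The genes whose levels ran most like those of a member were ranked by Pearson's r of log2(CPM + 1) over 48 sums, 6 mice by 8 cell types, among 12712 genes. The sums share mice and differ mainly by cell type, so r is a description without a p. For Pdcd1 they were Thy1 (0.97), Cxcr6 (0.97) and Sh2d1a (0.97), where Thy1 is a T cell surface protein and Cxcr6 a chemokine receptor. For Tox they were Trac (0.97), Icos (0.97) and Cd3e (0.96), 2 parts of the T cell receptor complex and a costimulatory receptor. Lag3 ran with Kdm2b (0.95), Cd8a (0.94) and Gpm6b (0.93). Havcr2 ran with Gm57204 (0.92), Niban1 (0.91) and Hopx (0.91), and Entpd1 with Srgn (0.92), Pde4b (0.92) and Fuca2 (0.91). Cd274 ran with Snx20 (0.96), Tyrobp (0.96) and Cd80 (0.94), Tyrobp being a signaling adaptor of myeloid cells, and Cd80 with Snx20 (0.96), Fgl2 (0.95) and Tyrobp (0.95). Pdcd1lg2 ran with Glipr2 (0.94), Nr4a3 (0.93) and Il10ra (0.93), and Cd86 with Cd83 (0.97), Ctss (0.95) and Plcg2 (0.94), where CD83 marks mature DCs. Lgals9 had the lowest values, Zswim6 (0.88), Lpp (0.88) and BC005537 (0.87).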

How the data were processed

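Single cells of liver tumors from 3 control and 3 stress mice were sequenced with 10x Chromium chemistry, 1 library per mouse. The deposited matrices hold raw UMI counts per gene and cell, which the authors made with Cell Ranger (9.0.0 for control and 7.1.0 for stress libraries, per the file headers; mm10 per the labels), and a table of the authors' Seurat clusters and cell types. The authors removed doublets with Scrublet, filtered cells on gene number and mitochondrial share and integrated the libraries with Harmony. Barcodes without an annotation (264 to 549 per mouse) were left out of all comparisons.

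Counts were summed per mouse over each cell type, over each DC, monocyte and NK/T cluster, and over all annotated cells. NK/T cells are 1 cluster. Sums with at least 10 cells in every mouse were tested with edgeR 4.0.16 (R 4.3.3; filterByExpr, TMM, quasi-likelihood test of stress against control), with Benjamini-Hochberg adjustment over all genes tested and a threshold of 0.05. Neutrophils and HSCs had fewer cells and were not tested. Annotated UMIs per mouse were 149558935 to 187728350. Shares of cells were compared by exact permutation tests over mice, with exact Clopper-Pearson 95% intervals for pooled shares. Cells were thinned to 1000 UMIs for shares, and shallower cells were left out. Beside members whose groups did not overlap, the share of all tested genes that did the same is given. For thinned cells too, this share is over the genes tested unthinned. Doublets were called again per library with the Scrublet of scanpy 1.11.5 (3.09 to 6.44% of cells), kept in the main values and left out in an alternative. DESeq2 1.42.0 was an alternative. The test was run on counts simulated with the means and library sizes of DCs. False calls exceeded the nominal rate there when each gene's own dispersion estimate was taken as true. Each mouse is a separate animal, so p-values measure the spread between animals and libraries.

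Levels are described for every member and cell type. Fold changes were given for pairs of gene and cell type fixed with the lists and for pairs past the threshold, pathway genes past the threshold were named in NK/T cells, DCs, monocytes and ECs (in tumor cells and M-MDSCs after their values were seen), and 3 genes per member were named by Pearson's r. Members and lists were chosen with earlier results of these data known. Promoter sequence came from RefSeq (GRCm38.p6) and positions from GENCODE M21, which held 32061 of the 34099 gene identifiers.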

Additional observations from a re-analysis of the deposited data

How the results depend on the processing

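Of 644 refitted values of member fold changes, 570 kept the sign and the side of the threshold, 46 had the opposite sign without passing in either fit, 28 passed where the reported value had not, and 0 passed with the opposite sign. RLE size factors and an added fold limit of 0.15 changed no count of members called. Without the filter on low counts 1 member passed in B cells, 4 in DCs and 3 in M-MDSCs, and DESeq2 called 3 in DCs. The labels do not say that replicate numbers are shared between groups. Same-numbered mice deviated together, with every correlation over 0.1, in 1 of 8 cell types (monocytes), and in 0 of 8 did every mouse correlate best with its own number. With the replicate block 4 members passed in DCs (Cd274, Cd80, Havcr2 and Pdcd1lg2, 6.28% of genes), 1 in M-MDSCs (Entpd1, 1.31%), 1 in cluster 12 (Cd86) and 6 over all cells (16.7% of genes), and it changed no other count. The cause of these shifts was not tested.

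Leaving out 1 mouse gave 0 to 2 members called in DCs, 0 to 1 in M-MDSCs, 0 to 2 in tumor cells and 0 to 2 over all cells, where 0.668 to 3.66%, 0.256 to 0.926%, 6.14 to 29.9% and 0 to 11.8% of all genes were called. Control 2 gave the highest count in each, and in DCs control 3 gave 1. Members whose shares of cells did not overlap in their leading cell type numbered 2, and 2 to 7 with 1 mouse left out (7 without control 2, 4 without stress 1), where 13.8 to 16.1% of all genes in these 4 cell types did not overlap in either direction, and 19.3 to 33.9% with 1 mouse left out (29.4 to 33.9% without control 2, 23.2 to 28% without stress 1). They numbered 0 unthinned (8.67 to 27.1% of genes) and 0 at 2000 UMIs (12.5 to 18.8%).

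Several small fold changes had no stable sign, and none of them was called in either fit. With cells thinned to 1000 UMIs, Cd274 in B cells was -0.071, Entpd1 -0.27 in DCs and -0.093 in NK/T cells, Lag3 in NK/T cells 0.050, and the Pdcd1lg2 gap between inflammatory myeloid cells and DCs -0.14. Without called doublets, Entpd1 was -0.49 in DCs and -0.15 in NK/T cells, and Cd274 was -0.052 in inflammatory myeloid cells. With the replicate block, Cd80 in B cells was 0.033 and Entpd1 in DCs -0.066. In cluster 20 alone, Cd86 was -0.31 and Entpd1 -0.95. Lag3 in NK/T cells was 0.039 without the filter and 0.013 in Cd3-positive cells, and Lgals9 was 0.038 in monocytes without cluster 13. With 1 mouse left out, the ranges were -0.16 to 0.98 for Cd274, -0.25 to 0.32 for Cd80 and -0.00057 to 0.90 for Entpd1 in B cells, -0.24 to 0.35 for Entpd1 and -0.10 to 0.36 for Lgals9 in DCs, and -0.43 to 0.17 for Entpd1 in ECs. They were -0.36 to 1.02 for Cd274 and -0.45 to 0.85 for Lgals9 in inflammatory myeloid cells, and -0.19 to 0.094 for Lgals9 in monocytes. In NK/T cells they were -0.14 to 0.38 for Entpd1, -0.23 to 0.16 for Havcr2, -0.33 to 0.22 for Lag3 and -0.26 to 0.11 for Pdcd1. Lgals9 in tumor cells ranged from -0.19 to 0.17, and in cluster 20 Cd274 ranged from -0.041 to 0.75, Cd86 from -0.46 to 0.061 and Havcr2 from -0.090 to 0.23. With 3 mice a group and control 1 holding 79 DCs, 93 NK/T cells and 15 M-MDSCs, differences of the size of these standard errors were not detectable.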

Other observations

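Ctla4, the receptor of CD80 and CD86, was found outside NK/T cells in all mice, and it fell in stress in tumor cells, M-MDSCs and ECs, where 21.4, 0.561 and 0.213% of all genes were called. It is described in these cell types after its values were seen. In tumor cells it was 82.8, 62.6 and 73.2 CPM in control 1 to 3 and 26.0, 24.6 and 18.2 CPM in stress 1 to 3, a log2 fold change of -1.81 (SE 0.18, edgeR adjusted p = 0.0036). It also fell in M-MDSCs (-1.79, edgeR adjusted p = 0.00181) and in ECs (-1.46, edgeR adjusted p = 0.0298). The M-MDSC levels were 65.4 to 85.1 CPM in control and 17.5 to 24.3 CPM in stress mice, near those of tumor cells. Of the cells labelled M-MDSC, 63.4% were called doublets, and the part of tumor transcripts in their Ctla4 values was not tested. The call held in 13 of 13 alternatives in tumor cells, in 11 of 12 in M-MDSCs (not without called doublets, adjusted p = 0.124), and in 8 of 14 in ECs, where it was lost without any 1 mouse other than control 2 and with cells thinned to 1000 UMIs. In NK/T cells, where it was highest, the value was -0.17 (adjusted p = 0.735), and in B cells -0.08 (adjusted p = 0.965). It did not pass in DCs (-0.73, adjusted p = 0.175), monocytes (-0.83, 0.216) or inflammatory myeloid cells (-1.39, 0.994), and in the untested neutrophils it was 12.8 to 32.8 CPM in control and 29.1 to 119 CPM in stress mice. The control and stress libraries were counted with different software versions, and the version's part in this cannot be told apart from that of stress.

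The barcodes without an annotation, 264 to 549 per mouse with 1292189 to 11357435 UMIs, held little of the receptors. Pdcd1 was 0 to 3.70 CPM and Lgals9 15.8 to 35.7 CPM there, and no member was higher in all 3 stress mice than in every control mouse.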
